A study of Drosophila melanogaster with 22 samples.

Results

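The 10 genes described here encode enzymes on the path from glucose 6-phosphate to pyruvate, with lactate dehydrogenase. The phosphoglycerate mutase genes of this path, Pglym78 and Pglym87, are not included and were read in a list of other glycolytic genes. The 10 are Pgi, Pfk, Ald1, Tpi, Gapdh1, Gapdh2, Pgk, Eno, PyK and Ldh, of 13950 protein-coding genes in the annotation used. Their open chromatin was taken as every deposited ATAC-seq peak that overlapped the gene or the 1 kb on either side of it, in coordinates of the fly genome build dm6. This gave 461 of 227249 deposited peaks, between 19 and 25 in each library. The 412 of them in lists cut to equal length, described below, fell into 20 merged regions. Of these, 19 were found in the lists of 3 or more of the 22 libraries and were tested, among 9850 tested regions in all.

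Glycolysis splits a six-carbon sugar into a pair of three-carbon molecules and yields ATP and NADH. In the fly adult heart, a contracting tube, most ATP is thought to come from oxidation in mitochondria, which glycolysis supplies with pyruvate. Lactate dehydrogenase turns pyruvate into lactate and regenerates NAD+, and in flies its expression is known to change with growth, hypoxia and age. ATAC-seq uses a transposase that cuts DNA where nucleosomes leave it exposed, so a peak marks DNA that is open, most often at promoters and enhancers, and does not measure how much of the gene is transcribed.

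Hearts were isolated from Drosophila melanogaster in 6 groups. The w1118 strain, which carries a mutation of the white eye-colour gene, was sampled at 1 week and at 5 weeks of age, with 3 libraries each and neither driver nor RNAi named in the labels. All other flies were 1 week old and carried Hand-Gal4, a driver active in cardiomyocytes and in pericardial cells: Hand-Gal4 with attp2 (4 libraries) is the control of Hand-Gal4 with LamC RNAi (4 libraries), and Hand-Gal4 with attp40 (3 libraries) is the control of Hand-Gal4 with LamB RNAi (5 libraries). LamC encodes the A-type lamin of the nuclear lamina and LamB the B-type lamin. The design text counts 1 library fewer for each knockdown (3 LamC RNAi, 4 LamB RNAi) than the titles do, and every titled library entered the analysis. The study asked which regions change both with age and on loss of a lamin. Nothing used here gives the sex of the flies or the number of hearts in a library.

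Each library came with a list of 8491 to 12395 peaks, and its read depth is unknown. To make the lists comparable, each was shortened to the 8491 peaks with the highest −log10 p-value of the authors. A region's rank score in a library is 1 for the strongest peak of that list, falls with rank, and is 0 where the reduced list held no peak there. A score is a position within 1 library, not an amount of open DNA. In whole hearts, fewer nuclei with an open site and a site less open in each nucleus cannot be told apart. Scores of libraries of 1 group correlated over all regions with r between 0.867 and 0.949, and no pair was identical. Of 14 heart genes used to check the tissue, among them Hand, Mef2, pnr and H15, 12 had a peak in at least 3 libraries, with tin and Doc1 the exceptions. Markers of other cells were open too: 5 of 6 for pericardial nephrocytes, 4 of 6 for somatic muscle, 4 of 6 for fat body, 4 of 6 for hemocytes, 3 of 5 for neurons and glia, 3 of 4 for trachea and epidermis, and vas and bam of the germline list, in which nos was not matched. Among the markers with no such peak were Act88F of flight muscle, Fbp1 of fat body, eater of hemocytes and repo of glia.

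All 10 glycolysis genes had a peak in every one of the 22 reduced lists. Across 13935 protein-coding genes with a position, 47.6% had a peak in every library. Taking the strongest peak at each gene, the median of the mean scores was 0.847 for the glycolysis genes, against 0.598 for the 9095 genes with a peak in at least 3 libraries and 0.706 for the 6627 genes with a peak in every library. A long gene has more room for a peak, and this was not adjusted for. The lowest of the 10, Gapdh1, stood above 65.2% of all genes with a position, those without a peak included, and the highest, Tpi, above 95.8%. Among the 9095 genes with a peak in at least 3 libraries these shares were 46.6% and 93.6%. Gapdh1 at 0.563, Ldh at 0.642 and PyK at 0.704 were below the median of genes with a peak in every library, and the other glycolysis genes above it.

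**Figure D1:**
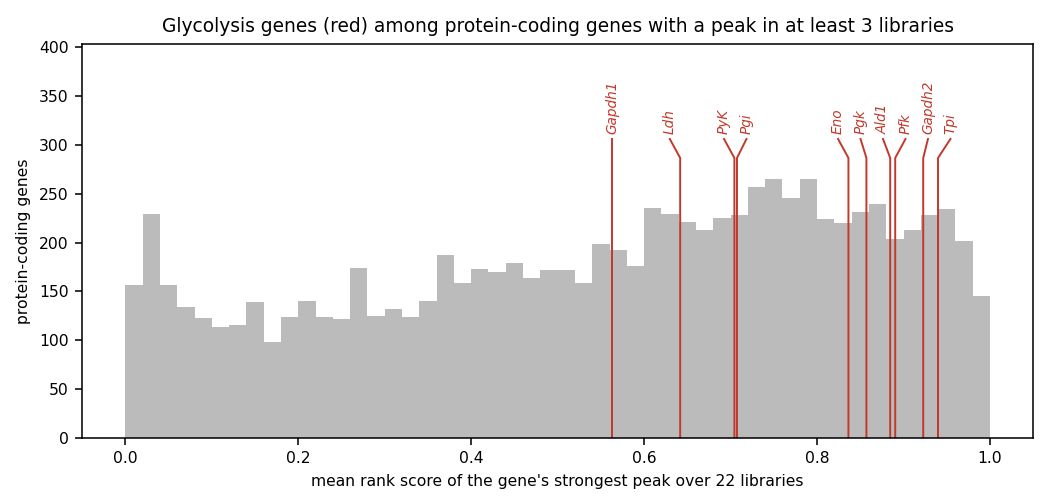
Histogram of protein-coding genes (vertical axis, number of genes) by the mean rank score of their strongest peak over 22 libraries (horizontal axis, 1 = strongest peak of the list), for the 9095 genes with a peak in at least 3 libraries. Red lines mark the 10 glycolysis genes, which run from Gapdh1 at 0.563 to Tpi at 0.940.

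A peak in all 22 reduced lists was found at 13 of the 20 regions. That is 68.4% of the 19 tested regions, beside 53.3% of all tested regions. At 4 genes (Pgi, Tpi, PyK and Ldh) there was a single region, and Pgk had the most, with 4. The strongest region reached an end of the gene at 8 of the 10 genes and lay inside the gene at Pfk and Eno. The gene table gives no strand, so ends are called lower or upper by coordinate and promoters are not told from 3′ ends. The flies' compact genome puts many of these regions on a neighbour as well: 10 of the 20 regions, and the strongest region at 6 of the 10 genes, overlapped another protein-coding gene, and a peak there cannot be assigned to either.

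**Figure D2:**
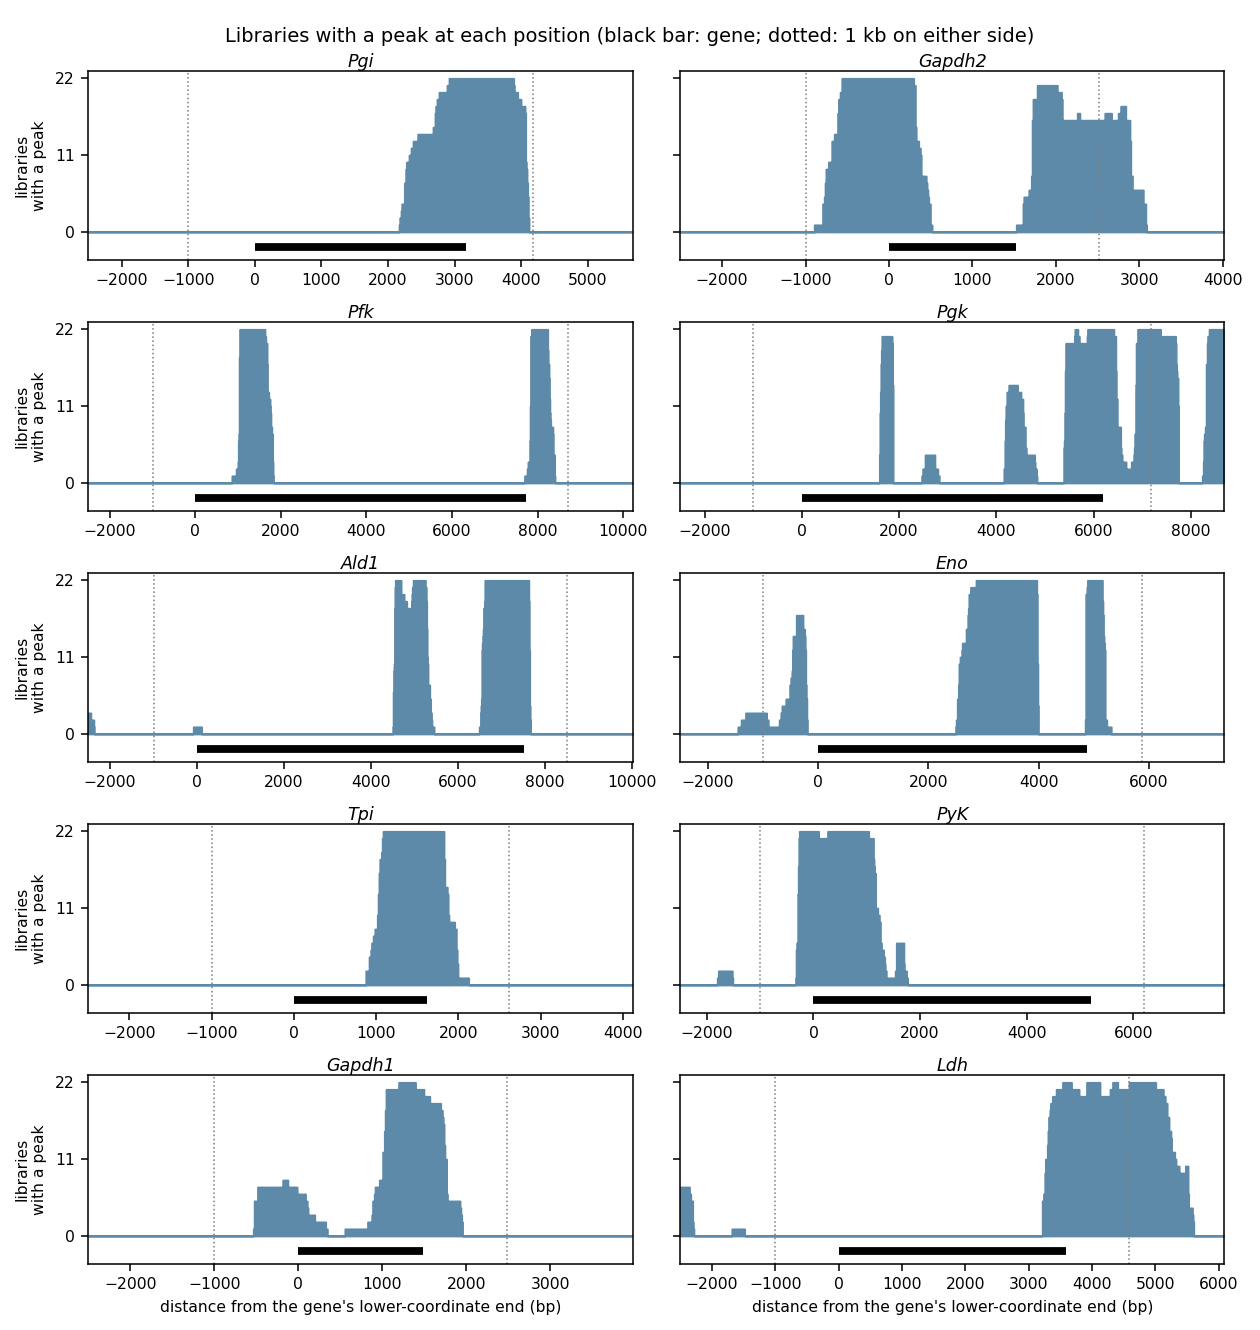
For each of the 10 genes, the number of libraries (vertical axis, 0 to 22, deposited peaks in the reduced lists) with a peak at each position, against distance in bp from the gene's lower-coordinate end. The black bar is the gene and the dotted lines mark 1 kb on either side. Most genes show 1 or 2 blocks shared by 22 libraries, while the Ldh block lies mostly beyond the gene's upper end and Pgk shows narrower blocks present in some libraries only.

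The first steps of the pathway prepare the sugar for splitting. Pgi, phosphoglucose isomerase, converts glucose 6-phosphate to fructose 6-phosphate. Its single region (chr2R:8913067-8915014) covered the upper-coordinate end and overlapped lin, and its summit lay 414 to 490 bp beyond the end of Pgi. Its score was 0.707 ± 0.0900 (SD, n = 22) and ran from 0.490 in LamB RNAi replicate 4 to 0.827 in attp2. Pfk, phosphofructokinase, commits the sugar to glycolysis. Its strongest region lay inside the gene (chr2R:10110591-10111563) at 0.890 ± 0.0432 (SD, n = 22), with a median 11.9-fold enrichment over local background in the authors' lists. A second Pfk region at the upper-coordinate end (chr2R:10117432-10118142), overlapping dmpd, had a mean score of 0.620.

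Ald1, aldolase, splits the sugar into a pair of trioses. It had a strong region at its upper-coordinate end (chr3R:26260563-26261739) at 0.885 ± 0.0462 (SD, n = 22) and a weaker one inside the gene (chr3R:26258577-26259519) with a mean of 0.398, both present in all 22 lists. An antisense RNA, asRNA:CR44321, is annotated within the first, at 26260902 to 26261515. A peak at its lower-coordinate end (chr3R:26253988-26254174) was in the reduced list of LamC RNAi replicate 1 alone and in 5 of the full lists, and was not tested. Tpi, triosephosphate isomerase, interconverts the trioses. Its region (chr3R:30133855-30135107), at the upper-coordinate end and overlapping the adenosine receptor gene AdoR, was the strongest of the 10 genes and varied least, at 0.940 ± 0.0236 (SD, n = 22) with all libraries between 0.886 and 0.966. The authors' fold enrichment there had a median of 12.3. A score cannot exceed 1, which limits the spread of regions near the top of the scale.

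Glyceraldehyde-3-phosphate dehydrogenase, the step that reduces NAD+, is encoded by a pair of paralogs that stood at opposite ends of the order. Gapdh2 had a score of 0.923 ± 0.0331 (SD, n = 22) at its lower-coordinate end (chrX:15867247-15868660), where the strongest summit lay at −254 to 2 bp from that end, negative values being outside the gene. Gapdh1 had 0.563 ± 0.0554 (SD, n = 22) at its upper-coordinate end (chr2R:7792455-7793859), which overlaps PolZ1. The lowest library of Gapdh2, at 0.827, was above the highest of Gapdh1, at 0.666. Nothing used here says how reads that match both copies were placed. Gapdh1 had a further weak region at its lower-coordinate end (chr2R:7791364-7792243), with a peak in 8 reduced and 20 full lists. In the reduced lists its peaks were in attp40 (0.0909, 0.163 and 0.0885), in attp2 replicates 1 and 4 (0.0808 and 0.0456) and in LamB RNAi replicates 1, 2 and 5 (0.187, 0.0555 and 0.00342), and no w1118 or LamC RNAi library had one. Gapdh2 had a second region 10 bp outside its upper-coordinate end, on CG16952 (chrX:15869671-15871228), at a mean of 0.259 and between 0 and 0.520.

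Pgk, phosphoglycerate kinase, makes the first ATP of the pathway. Its strongest region spanned its upper-coordinate end and overlapped Bacc (chr2L:2752263-2754621), at 0.857 ± 0.0735 (SD, n = 22), and was called as more than 1 peak in 20 of the 22 lists. The other 3 Pgk regions lay inside the gene and were weak. One at chr2L:2748473-2748755 had a peak in 21 reduced lists and a mean of 0.236, one at chr2L:2751032-2751711 in 14 lists and a mean of 0.0960, and one at chr2L:2749345-2749708 in 4 lists and a mean of 0.00890. Eno, enolase, makes phosphoenolpyruvate. Its strongest region lay inside the gene, on the stretch it shares with Rrp40 (chr2L:1727264-1728767), at 0.836 ± 0.0408 (SD, n = 22). A second Eno region at the upper-coordinate end, overlapping Rrp40 and CG31937 (chr2L:1729611-1730079), had a mean of 0.230. The third did not touch Eno: it lay 193 bp outside the lower-coordinate end, on the end of Rim2, a mitochondrial carrier gene (chr2L:1723313-1724575), with a mean of 0.195.

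PyK, pyruvate kinase, makes pyruvate and the last ATP. Its region at the lower-coordinate end, overlapping Polr3F (chr3R:22367206-22369303), had a score of 0.704 ± 0.0698 (SD, n = 22). Ldh, lactate dehydrogenase, had 0.642 ± 0.122 (SD, n = 22), the widest spread over libraries among the strongest regions of the 10 genes. Its region (chr3L:6262316-6264705) started inside the gene and ran past its upper-coordinate end, which is at 6262694. The strongest summit lay 427 to 1332 bp beyond that end, with a median of 1271 bp, and the strongest peak was 928 to 2378 bp wide. No other protein-coding gene overlapped it, and a long non-coding RNA, lncRNA:CR44522, is annotated within it at 6263008 to 6263399. Of the Ldh gene body itself, 1.39% was inside a peak in every reduced list and 89.7% in no peak of any reduced list. Across the other genes the first share ran from 5.98% at Pgk to 32.7% at Tpi. The second ran from 14.2% at Gapdh1 to 87.2% at Pfk.

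Set in order, the mean scores of the strongest regions ran from Tpi through Gapdh2, Pfk, Ald1, Pgk and Eno to Pgi, PyK, Ldh and Gapdh1. Most neighbours in this order differed by less than the SD of their difference within a library. Between Pfk and Ald1 the difference within a library was 0.00585 ± 0.0585 (SD, n = 22), with Pfk above in 10 of 22 libraries, and between Pgi and PyK it was 0.00303 ± 0.102 (SD, n = 22), with Pgi above in 12. At the other pairs except Eno and Pgi, the higher gene led in 14 (Ald1 above Pgk) to 17 (Pgk above Eno) of 22 libraries. Only the step from Eno to Pgi was larger than its SD, at 0.129 ± 0.0873 (SD, n = 22), with Eno above in 21 of 22 libraries. By mean score the first 6 genes therefore formed an upper set and Pgi, PyK, Ldh and Gapdh1 a lower one. Single libraries of the sets overlapped, as Ldh reached 0.854 and Pgk fell to 0.635. Scores rank peaks within a library and were not divided by gene length.

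**Figure D3:**
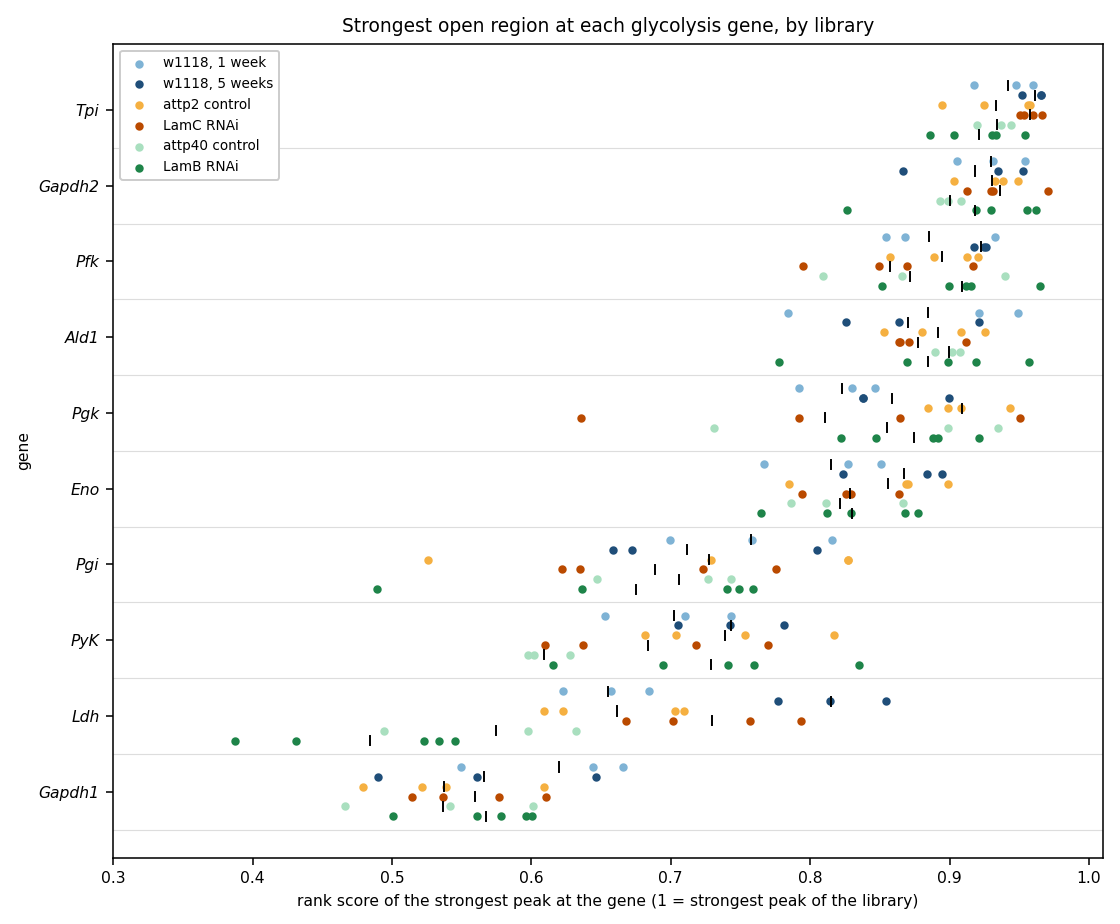
Rank score of the strongest peak at each gene (horizontal axis, 1 = strongest peak of the list) in each of the 22 libraries. Points are libraries, coloured by group, and black ticks are group means. The libraries of a gene overlap across groups at most genes. At Ldh the 5-week w1118 libraries, with the highest group mean, lie between 0.777 and 0.854. The LamB RNAi libraries, with the lowest, lie between 0.388 and 0.545.

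The first comparison asks what differs across the 6 groups at all. All scores were fitted together with limma, and an F-test over the 6 groups was adjusted over all 9850 regions by Benjamini-Hochberg with a threshold of 0.05. At this threshold 2 of the 19 glycolysis regions were called, the Ldh region and the region beside Eno, where 7.22% of all regions were called. The share of members, 10.5%, is 2 regions. At an unadjusted p under 0.05 there were 3 of 19, against 22.1% of all regions. The w1118, attp2 and attp40 flies differ in strain and in the dates carried by the files, and w1118 differs from the others in the driver. This test cannot tell those apart from age or knockdown.

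At Ldh the 1-week w1118 libraries had scores of 0.657, 0.684 and 0.623, and the 5-week libraries 0.814, 0.854 and 0.777. The attp2 controls had 0.703, 0.623, 0.609 and 0.709, and LamC RNAi had 0.757, 0.793, 0.702 and 0.667. The attp40 controls had 0.632, 0.598 and 0.494, and LamB RNAi had 0.388, 0.431, 0.545, 0.523 and 0.534. The 5-week hearts thus had the highest mean and the LamB RNAi hearts the lowest, and the means of the 3 groups of 1-week controls lay between. These 2 groups were picked as the extremes after the values were seen. They differ in strain, age, driver and RNAi at once and are not a comparison of the design. Group means ran from 0.815 ± 0.0385 (SD, n = 3) at 5 weeks to 0.484 ± 0.0703 (SD, n = 5) in LamB RNAi. The difference among groups had a limma adjusted p of 0.000845 and remained called under all 32 alternatives run, at adjusted p from 0.000435 to 0.0264.

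Age was compared in w1118, at 5 weeks against 1 week. None of the 19 regions was called by limma, where 1.32% of all regions were. At an unadjusted p under 0.05 there was 1 member, Ldh, against 11.6% of all regions. Differences of the 19 ran from −0.120 to 0.173, with a median of 0.00440 beside 0 for all regions, and their standard errors from 0.0180 to 0.113. At Ldh the 5-week mean was higher by 0.161 ± 0.0529 (limma SE, 3 against 3), with a limma adjusted p of 0.168. All 3 of the older libraries were above all 3 of the younger ones. The weak region inside Pgk at chr2L:2748473-2748755 was the other member whose groups did not overlap. It had 0.113, 0.0735 and 0.0485 at 1 week and 0.361, 0.199 and 0.193 at 5 weeks, a difference of 0.173 ± 0.10 (limma SE, adjusted p = 0.569). Such 2 of 19 stand beside 14.9% of all regions with groups that do not overlap. When peaks were ranked by fold enrichment the Pgk difference was 0.

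At the strongest regions of the other 9 genes, differences with age ran from −0.0541 at Gapdh1 to 0.0523 at Eno. Tpi differed by 0.0192, Gapdh2 by −0.0119, Ald1 by −0.0147, Pgk by 0.0357, Pfk by 0.0377, PyK by 0.0410 and Pgi by −0.0458, and none was called by limma.

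**Figure D4:**
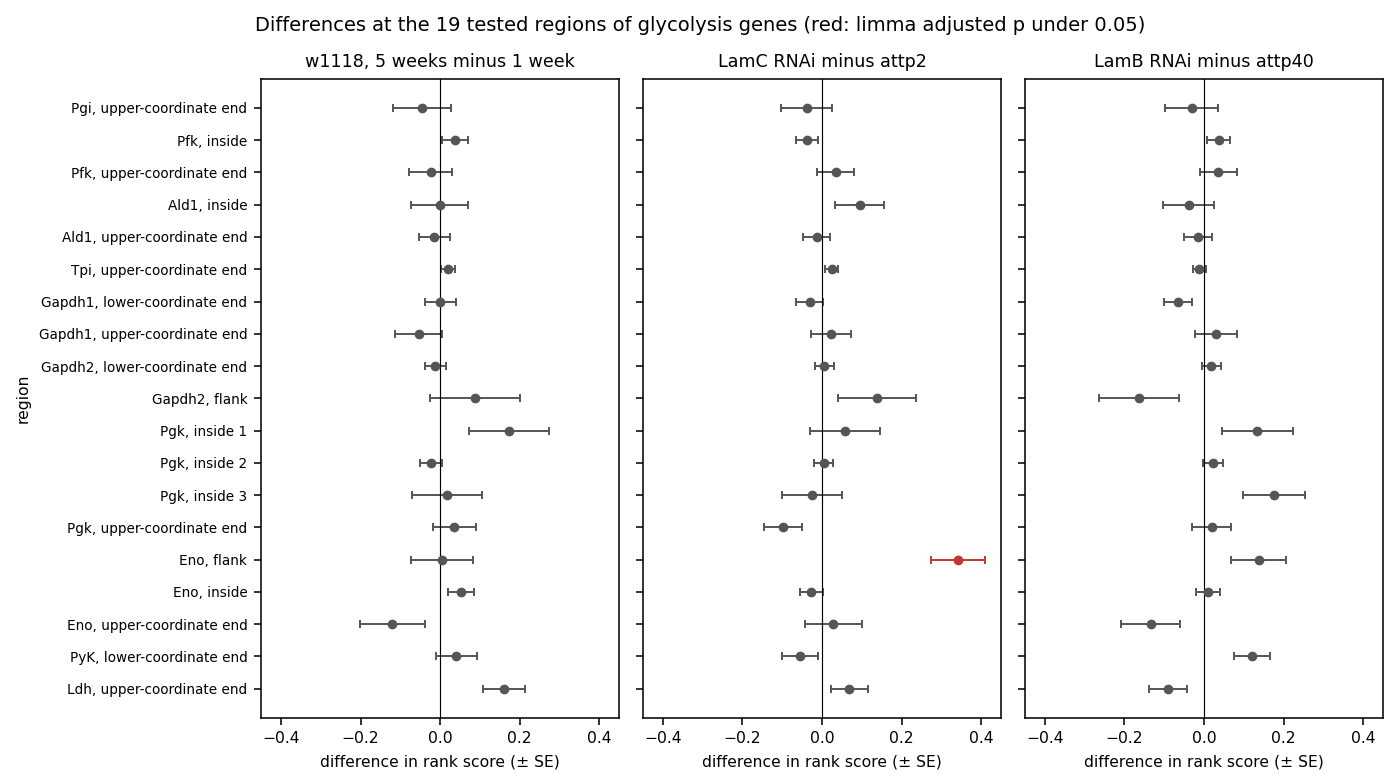
Difference in rank score (horizontal axis, ± limma standard error) at the 19 tested regions of glycolysis genes for age in w1118 and for each knockdown against its control. The flank of Eno under LamC RNAi, at 0.341, is the only region past the threshold (red), and the age difference at Ldh is 0.161.

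LamC RNAi was compared with attp2. The count of members called by limma was 1 of 19, where 0.152% of all regions were called, and 2 of 19 had an unadjusted p under 0.05, against 6.59% of all. The 1 region was the one beside Eno, on Rim2. No library of attp2 had a peak there in its reduced list (0, 0, 0 and 0), while LamC RNAi had 0.292, 0.430, 0.389 and 0.255. In the full lists attp2 replicate 3 did have a peak in that place, at rank 9021 of 11602. The attp2 group was the one that stood out across the series: w1118 had 0.266, 0.242 and 0.0491 at 1 week and 0.171, 0.255 and 0.144 at 5 weeks, attp40 had 0.274, 0.140 and 0, and LamB RNAi had 0.353, 0.408, 0.213, 0.207 and 0.194. So 17 of the 18 libraries outside attp2 had a peak, and the 1 without was attp40 replicate 3.

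The difference between LamC RNAi and attp2 at this region was 0.341 ± 0.0676 (limma SE, 4 against 4), with a limma adjusted p of 0.0328, and the 6 groups differed with an adjusted p of 0.0228. Of all regions, 3.09% had groups that did not overlap in this comparison, and among the 19 members this was the only one. The call was lost when attp2 replicates 1, 2, 3 or 4 or LamC RNAi replicates 1, 2 or 3 were left out in turn, at differences of 0.312 to 0.358 and limma adjusted p from 0.0570 to 0.150. It was kept without LamC RNAi replicate 4, at 0.370 and an adjusted p of 0.0278. Ranked by fold enrichment, the difference was 0.117 with an adjusted p of 0.678. The 6-group call was likewise lost with that ranking (limma adjusted p = 0.283) and without attp2 replicates 1, 2, 3 or 4 in turn (adjusted p from 0.0520 to 0.0561). The peak was narrow and weak, with a median width of 262 bp, a median 3.35-fold enrichment in the authors' lists and a summit at −388 to −306 bp from the lower-coordinate end of Eno, outside the gene. The strongest Eno region, inside the gene, differed by −0.0275 ± 0.0290 (limma SE, adjusted p = 0.950).

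At the upper-coordinate end of Pgk, LamC RNAi libraries had 0.792, 0.865, 0.950 and 0.635, and attp2 libraries 0.943, 0.884, 0.899 and 0.908. The groups overlapped, and LamC RNAi replicate 4 was the lowest of all 22 libraries. The difference was −0.0980 ± 0.0469 (limma SE, adjusted p = 0.756), and without LamC RNAi replicate 4 it was −0.0396. At Ldh the LamC RNAi mean was higher by 0.0687 ± 0.0458 (limma SE, adjusted p = 0.880), with overlapping groups. Over the 19 regions the median difference was 0.00536, beside 0.00166 for all regions, with 11 regions at positive and 8 at negative values.

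LamB RNAi was compared with attp40. None of the 19 regions was called by limma, where 0.183% of all regions were, and 2 had an unadjusted p under 0.05, against 6.40% of all. The first was PyK, with attp40 at 0.598, 0.602 and 0.628 and LamB RNAi at 0.835, 0.694, 0.741, 0.616 and 0.760. All LamB RNAi libraries but replicate 4 were above the 3 controls. The difference was 0.120 ± 0.0458 (limma SE, adjusted p = 0.577). The second was the region inside Pgk at chr2L:2751032-2751711, with attp40 at 0.132, 0 and 0.0664 and LamB RNAi at 0.525, 0, 0.324, 0.185 and 0.171. Its groups overlapped, and the difference was 0.175 ± 0.0778 (limma SE, adjusted p = 0.723).

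At Ldh the LamB RNAi mean minus the attp40 mean was −0.0906 ± 0.0473 (limma SE, adjusted p = 0.833). The file of attp40 replicate 3 carries a date in February and those of all other attp40 and LamB RNAi libraries dates in July, and what these dates record is not given. Within the July libraries, where attp40 replicates 1 and 2 were the only controls, the Ldh difference was −0.131 (limma adjusted p = 0.705). For PyK the July value was 0.129 (limma adjusted p = 0.727). For the region beside Eno the difference was 0.137 with all libraries and 0.0680 within July (limma adjusted p = 0.824 and 1.0). No member had groups that did not overlap when all libraries were used, beside 3.16% of all regions. The median difference of the 19 regions was 0.0186, beside −0.00296 for all.

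The differences themselves were also compared between age, LamC RNAi and LamB RNAi as contrasts of the same limma fit. At Ldh the age difference exceeded the LamB RNAi difference by 0.251 (limma adjusted p = 0.206). At the region beside Eno the age difference minus the LamC RNAi difference was −0.337 (limma adjusted p = 0.226). No such contrast passed the threshold at any of the 19 regions, so none of the glycolysis regions is shown to respond differently to age and to loss of a lamin, nor to respond alike.

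**Figure D5:**
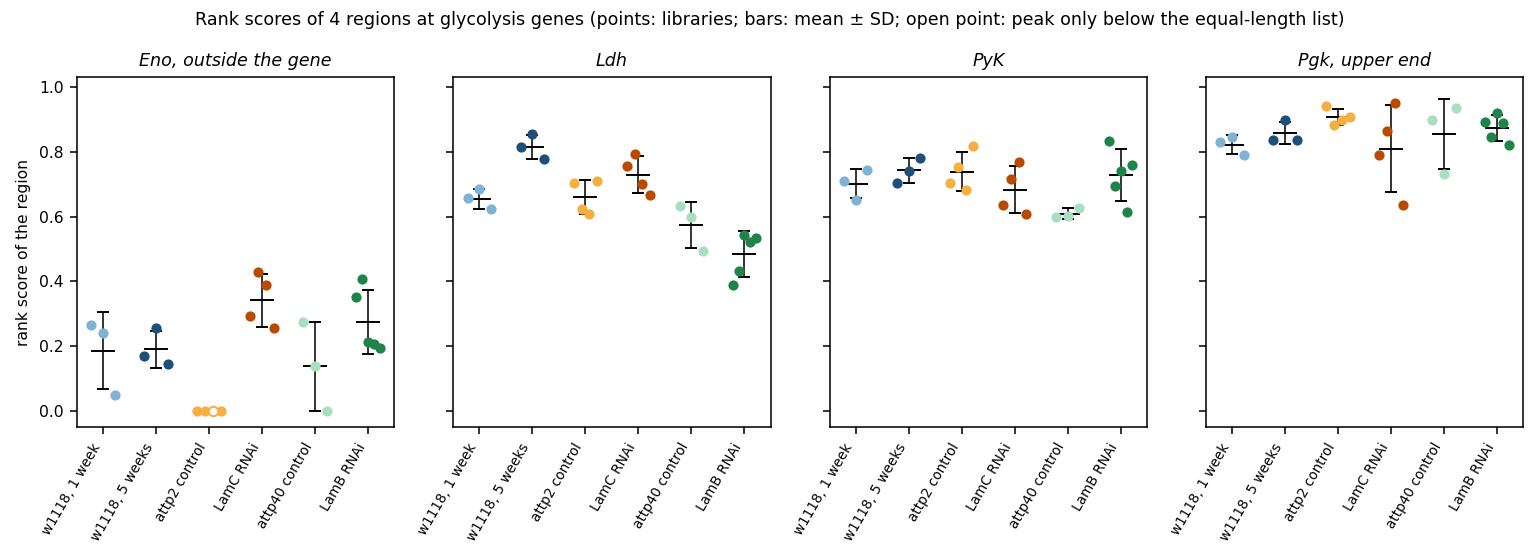
Rank score (vertical axis) in every library by group at the region outside Eno, at Ldh, at PyK and at the upper-coordinate end of Pgk. Points are libraries, bars are the group mean ± SD, and the open point marks attp2 replicate 3, whose peak ranked below the reduced list. The attp2 libraries sit at 0 outside Eno, and Ldh group means run from 0.484 to 0.815.

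For each of the 2 called regions the 5 regions with the most similar scores over the 22 libraries were found by Pearson's r, as a description. The libraries share strain, date and list length, and the regions were picked as the highest of 9850. For the region beside Eno these were at Glut1 (r = 0.718), KCNQ and mlt (0.698), EcR (0.665), CG44153 (0.645) and CG12769 (0.644). Glut1 encodes a glucose transporter, KCNQ a potassium channel and EcR the ecdysone receptor. At the Glut1 region (chr3L:967801-968640) the group means were 0.473 in attp2 and 0.742 in LamC RNAi, and 0.628 in attp40 and 0.762 in LamB RNAi. For Ldh they were at CG18659 (r = 0.831), rho-4 (0.807), Fas3 (0.770), CG2201 (0.769) and sm (0.767). At all 5 regions the lowest group mean was in LamB RNAi and the next lowest in its control, attp40. At CG18659 these were 0.192 and 0.245, against 0.586 in 5-week w1118. Ldh, to which the regions were matched, had the same 2 groups lowest.

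Genes around the pathway were read from 7 lists of 59 genes: hexose uptake and phosphorylation, glycogen and trehalose, other glycolytic genes and paralogs, fates of pyruvate, the glycerol phosphate shuttle, the pentose phosphate pathway, and regulators of glycolytic transcription. Of these, 50 genes had a peak in at least 3 libraries and 44 in every library, with 109 regions, none of them shared with the 10 glycolysis genes. With age 1 region (of 109, where 1.32% of all regions were called) rose and none fell by limma, and LamC RNAi and LamB RNAi called none. At an unadjusted p under 0.05 the limma fit had 9 of 109 regions for age, 9 for LamC RNAi and 8 for LamB RNAi, where the shares of all regions were 11.6%, 6.59% and 6.40%. The median differences were 0 for age, 0 for LamC RNAi and 0.0114 for LamB RNAi. Over the 6 groups 8 regions were called, or 7.34%, close to the 7.22% of all regions.

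The region called as higher with age was at sima (chr3R:30077882-30078368). This gene encodes the fly HIF-1 alpha factor, which drives the hypoxia response and is known to induce Ldh. The region was at 0 in all 1-week w1118 libraries and at 0.0956, 0.240 and 0.216 at 5 weeks. Of the other libraries only LamB RNAi replicates 1 and 5 had a peak (0.168 and 0.0777), so the region passed the filter of 3 libraries through the 5-week group. The difference was 0.184 ± 0.0394 (limma SE, adjusted p = 0.0189). Because the 5-week group brought the region into the test, this p-value is not given as support for a rise with age. The call was lost with the w1118 libraries alone (limma adjusted p = 0.243) and without w1118 replicates 1 or 3 of 1 week or 2 or 3 of 5 weeks (differences of 0.156 to 0.184, adjusted p from 0.0563 to 0.0939). Another sima region (chr3R:30105193-30105546) was called over the 6 groups (limma adjusted p = 0.000443), with group means of 0.193 and 0.244 in w1118 against 0.556 to 0.666 in the 4 Hand-Gal4 groups. The other regions called over the 6 groups were a pair at Glut1 and 1 each at CG7362, at Pfrx, the enzyme that makes the Pfk activator fructose 2,6-bisphosphate, at crc, the fly ATF4, and at sug, a sugar-responsive repressor. At sug the score was higher at 5 weeks by 0.274 (limma adjusted p = 0.0724).

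Under LamC RNAi the genes of these lists with the lowest p were Glut1 (0.268, limma adjusted p = 0.211), Taldo (−0.288, adjusted p = 0.263) and Pgm2a (0.180, adjusted p = 0.565). The Glut1 value is from the region already named as most like the one beside Eno. It was picked there from the same scores and is not a separate result. Glut1 imports glucose, Taldo, transaldolase, links the pentose phosphate pathway to glycolysis, and Pgm2a is a phosphoglucomutase. Under LamB RNAi they were Gpdh3 (0.313, limma adjusted p = 0.388), Pepck2 (0.104, adjusted p = 0.486) and PCB (0.129, adjusted p = 0.492). PCB, pyruvate carboxylase, and Pepck2, a phosphoenolpyruvate carboxykinase, act in gluconeogenesis, and Gpdh3 belongs to the glycerol-3-phosphate dehydrogenases. None of these passed the threshold.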

How the data were processed

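ATAC-seq of isolated fly hearts gave 1 peak list per library, 22 in all, in narrowPeak format. Bowtie2, SAMtools, Picard and MACS2 with genome build dm6 were used, per the submitters' processing notes. Their versions and settings, any transposase shift of reads and the treatment of reads matching several places: not given in the sources used here. Deposited lists give each peak a fold enrichment (a ratio), a p-value as −log10 and a q-value as −log10 (the q not used), relative to its own library. Reads were not used, so depth is unknown and no counting interval can be given. Lists grow with depth, which is why each was reduced to its 8491 strongest peaks.

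Bedtools 2.31.1 merged peaks of the reduced lists that shared 1 bp or more, and a region needed a peak in 3 libraries to be tested. The rank score was (8491 − rank + 1)/8491 for a region's strongest peak, or 0. Genes, in RefSeq spans of the Release 6 assembly without strand, were matched by symbol, and all 10 were found. Other regions were named by the protein-coding genes within 500 bp. The test was limma 3.58.1 (R 4.3.3, trend) in 1 fit of the 22 libraries, and p-values were adjusted by Benjamini-Hochberg over all 9850 regions per comparison. The spread is thus 1 estimate over the 6 groups. This step was checked on simulated data, with known shifts added in regions of intermediate score only. Larger shifts were recovered more often than smaller ones, so a difference that was not called is not shown to be absent. Python 3.11.15, numpy 2.4.6 and pandas 2.3.3 were used.

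Groups come from the sample titles. Whether libraries of a group are separate pools of flies is not stated, so the p-values cover only the spread among these libraries, part of which may be technical. The 10 genes and the lists were chosen with earlier results of these data known. Named were the strongest region of each gene, every region that passed a test, regions in some libraries whose group means ranged over at least 0.1, the 5 regions most like each called one, and list genes that passed or had the 3 lowest p. Other regions with values are named outside this rule, after their values were seen. Alternatives were the full and half-length lists, ranking by fold, a 100 bp overlap, other filters and flanks, other fits, 1 value per gene, a replicate block and leaving out each library. No DNA sequence was used.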

Additional observations from a re-analysis of the deposited data

Results flagged for a closer look

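Within groups of 4 or 5 libraries, 54 sets of scores were checked for a highest or lowest library far from the others, and 4 were found, where chance flags about 1 in 20 groups. At the upper-coordinate end of Pfk, attp2 replicate 3 had 0.6728, with the next library at 0.6192. At the upper-coordinate end of Ald1, LamC RNAi replicate 2 had 0.9114, with the next at 0.8709. In the region inside Pgk at chr2L:2749345-2749708, LamC RNAi replicate 1 had 0.0159 and LamB RNAi replicate 4 had 0.1108, with all other libraries of these groups at 0. Where the others are tied at 0 any single peak is flagged, so the rate of 1 in 20 does not apply there. None of these regions was called in any comparison.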

How the results depend on the processing

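No member was called for age or LamB RNAi under any alternative run, so those counts remained 0. The LamC RNAi count fell from 1 to 0 with all deposited peaks (difference beside Eno 0.378, limma adjusted p = 0.0670) and with ranking by fold (0.117, adjusted p = 0.678). It was also 0 with the libraries of the comparison only (0.341, adjusted p = 0.0937), with half-length lists and with 1 value per gene. In half-length lists the region beside Eno is absent, and with 1 value per gene the stronger region inside Eno stands for the gene. The region beside Eno was thus not tested again in these settings, for LamC RNAi or over the 6 groups. When each library was left out, the LamC RNAi count ranged from 0 to 1. The count over the 6 groups fell from 2 to 1 with half-length lists, with ranking by fold (beside Eno adjusted p = 0.283) and with 1 value per gene, and ranged from 1 to 3 when each library was left out: 1 without each attp2 library in turn (adjusted p from 0.0520 to 0.0561) and 3 without LamB RNAi replicate 1, which added the lower-coordinate end of Gapdh1. With all deposited peaks it was 3, PyK added. Half-length lists left 11 regions in place of 19 and 7 genes with a peak in every library in place of 10. The age difference inside Pgk at chr2L:2748473-2748755 was 0 when ranked by fold. For the sima region called for age, these settings were chosen after seeing the data, and it could not be tested in half-length lists or with regions in at least 11 libraries. Of 248 alternative values for single regions, 225 kept their side of the threshold and, outside the 6-group test, their direction. The 22 that lost a call were all at the region beside Eno or at sima. Values not called in the main fit kept their side by staying uncalled, so the 225 do not measure how stable the calls are.

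Replicate numbers were not taken as pairs in the main fit. Deviations of same-numbered libraries correlated from 0.0237 to 0.147 for age, −0.274 to 0.0385 for LamC RNAi and 0.0841 to 0.213 for LamB RNAi. No values of differently numbered libraries stand beside these, so whether the numbers pair libraries was not tested. With the replicate block the LamC RNAi count was 0 (0.341, limma adjusted p = 0.804), the 6-group count 2 and the others 0, and sima was not called for age (adjusted p = 0.478). Over all regions the block called 0 for age (130 without it), 1 for LamC RNAi (15), 0 for LamB RNAi (18) and 522 for the 6 groups (711).

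Calls over all regions moved under other settings too. For age they were 349 with all deposited peaks, 27 with half-length lists, 27 with regions in at least 11 libraries, 20 with the comparison's libraries only, 224 with library weights and 6 with 1 value per gene, and 61 to 171 when each library was left out. For LamC RNAi they were 4 with its own libraries and 4 with 1 value per gene, and for LamB RNAi 7 and 2, with 9 without the trend and 8 to 24 when each library was left out. For the 6 groups they were 1234 with all deposited peaks, 241 with half-length lists and 267 with 1 value per gene. The cause of these changes was not tested. A score of 0 beside Eno or inside Pgk can be a peak just below the list's end, and at unknown depth absence cannot be shown.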
